A study of Mus musculus with 463 samples.

Results

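The GATA and FOXA endoderm factors are 5 transcription factor genes, Gata4, Gata6, Foxa1, Foxa2 and Foxa3, taken by their listed symbols from 40824 genes in the read count tables of mouse embryonic pancreas and liver bud. All 5 were present in both tables and all 5 passed the filter on low counts in both. GATA4 and GATA6 are zinc finger factors that bind GATA motifs, and in the mouse their combined loss in the early pancreas prevents its growth. FOXA1, FOXA2 and FOXA3 are forkhead factors that can bind their motifs in closed chromatin and so act early in the foregut endoderm, from which the pancreas and liver arise. In the mouse, Foxa1 and Foxa2 act together on Pdx1, the regulator that marks the pancreatic buds, Foxa2 is needed for mature beta cells, and Foxa3 is best known from the liver.

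Bulk RNA-seq of sorted cells covered ventral and dorsal pancreas with 2 libraries in each of 8 groups. At E10.5 the cells were Pdx1+ by a Pdx1-GFP transgene. At E14.5 they were Ngn3-high and Ngn3-low by an Ngn3-GFP transgene that reports the endocrine progenitor factor Neurog3. At E17.5 they were Ins1+ by an insulin RFP transgene that marks beta cells. Smart-seq2, a full-length single-cell method, covered 447 cells. At E9.5 and E10.5 these were ventral and dorsal Pdx1+ cells of Pdx1-GFP embryos. Further E10.5 cells were sorted as Pdx1-high or Pdx1-low on each side. Ventral Pdx1-low cells were also sorted with an antibody to Liv2, a surface antigen of early hepatoblasts, into Liv2+ and Liv2- cells, and Liv2+ cells came from the E10.5 liver bud. The last 4 cells were tdTomato+ cells of the E15.5 liver, in which a Pdx1-Cre transgene marks cells that had once expressed Pdx1 or descend from such cells. No group was treated, and the labels name neither the strain nor the number of embryos behind a library or set. Cells carry a set number, and the reads of a set's cells were summed, which left 37 sets of 3 or more cells in 11 groups as replicates. What a set number stands for is not given, so p-values measure only the spread between libraries or sets, which may be technical.

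Reads on genes numbered 8779418 to 24551520 per bulk library, with a median of 1064163 per cell. The sorted genes followed their gates, with an exception for Pdx1 in the dorsal E10.5 Pdx1+ sets. Neurog3 averaged 953 CPM in ventral and 902 CPM in dorsal Ngn3-high libraries, against 117 and 124 CPM in Ngn3-low libraries. Ins1 averaged 28600 CPM in ventral and 26610 CPM in dorsal E17.5 libraries. Pdx1 averaged 246 CPM in ventral and 219 CPM in dorsal Pdx1-high sets, and reached at most 25.4 and 48.3 CPM in the Pdx1-low sets sorted without Liv2. In E10.5 Pdx1+ sets Pdx1 ran from 82.8 to 126.5 CPM in ventral and from 3.63 to 257.8 CPM in dorsal sets. The epithelial gene Epcam reached 10 CPM in 433 of 447 cells. Levels below are CPM, read counts scaled with TMM to a common library size, and differences are log2 ratios (log2 fold changes) of the first-named group over the other with their standard error (SE) and Benjamini-Hochberg adjusted p from edgeR's quasi-likelihood test, adjusted over 17690 genes in bulk and 17433 in sets. A difference was called at an adjusted p under 0.05. In bulk samples, fewer cells of a type and less RNA per cell cannot be told apart.

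The forkhead genes are compact. In GRCm38, Foxa1 lies on the minus strand at chr12:57540628-57546916, Foxa2 on the minus strand at chr2:148042877-148046969 and Foxa3 on the minus strand at chr7:19013284-19023538. Gata4 spans chr14:63198922-63271692, also on the minus strand. RefSeq start windows, 250 bases before each annotated start in GRCm38.p6, were at hand for Foxa1 (1 window), Foxa2 (3) and Foxa3 (1). They were searched on both strands for a forkhead motif, TGTTTAC, and its variant TGTTTGC. The GATA motif AGATAA was searched for too, with the 2 variants TGATAA (first base changed) and AGATAG (last base changed). None of these motifs contains another. The 2 windows with a match are shown, since both genes were called between stages and between gates in bulk. The capitals mark the match, each window is written on the gene's strand, and each ends at the base before the start.
Foxa1 chr12:57546112-57546361: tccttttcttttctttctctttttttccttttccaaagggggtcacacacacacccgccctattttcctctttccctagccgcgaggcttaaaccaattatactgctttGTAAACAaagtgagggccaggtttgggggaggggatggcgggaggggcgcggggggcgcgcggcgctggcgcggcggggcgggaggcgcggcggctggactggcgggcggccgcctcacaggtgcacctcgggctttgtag
Foxa2 chr2:148045465-148045714: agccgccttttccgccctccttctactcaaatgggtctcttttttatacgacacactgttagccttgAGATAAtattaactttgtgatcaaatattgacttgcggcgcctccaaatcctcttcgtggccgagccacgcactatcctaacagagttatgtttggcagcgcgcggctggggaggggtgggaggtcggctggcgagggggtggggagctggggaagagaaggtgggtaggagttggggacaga

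The Foxa1 window held GTAAACA, the reverse complement of TGTTTAC, 141 to 135 bases before the RefSeq start used. The whole window lies within the Foxa1 span given above, so the forkhead motif of this forkhead gene lies inside the annotated gene. The Foxa2 window belongs to the annotated start furthest into the gene and lies within the Foxa2 span. It held AGATAA 183 to 178 bases before that start. The other 2 Foxa2 windows and the Foxa3 window held no match. Such letters are common: of 32851 start windows of this length, 3.17% held TGTTTAC, 7.29% either forkhead motif, 9.99% AGATAA and 22.3% any of the GATA motifs. A match describes the letters and is not a measured binding site.

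Gata6 lies on the plus strand of chromosome 18, at 11052064 to 11085635. The antisense gene 1010001N08Rik overlaps it. The bulk library kit keeps the strand, but the strand setting of the counting is not given in the sources used here, and Smart-seq2 does not mark strand, so part of the Gata6 reads could come from the antisense gene.

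RPKM, a per-length scale, was computed for each library from the counts on genes. On it Foxa2 had the highest mean of the 5 members in 5 of the 8 bulk groups. Gata6 had it in the other 3, ventral E10.5 and both Ngn3-low groups. In ventral E10.5 libraries the mean RPKM was 42.5 for Gata6, 39.3 for Foxa2, 35.0 for Gata4, 15.8 for Foxa1 and 13.0 for Foxa3. In dorsal E10.5 libraries it was 67.3 for Foxa2, 40.2 for Gata4, 18.5 for Gata6, 12.2 for Foxa3 and 9.90 for Foxa1. The order of the GATA pair therefore differed between the sides on this scale. By E17.5 Foxa2 stood at 33.8 RPKM in ventral and 33.5 RPKM in dorsal beta cells, against 1.34 and 1.55 RPKM for Gata4.

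**Figure D1:**
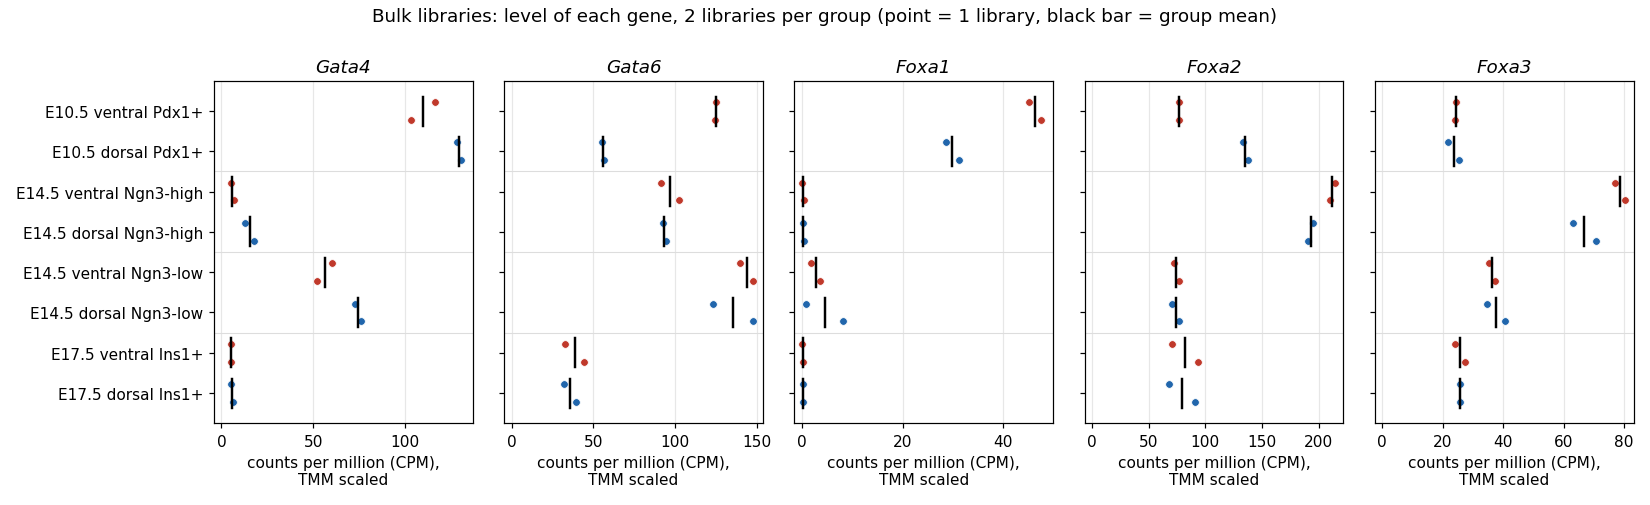
Level of each member in the 16 bulk libraries (x axis, CPM, own scale per gene, from 0) by group (down the page, from E10.5 to E17.5). Points are libraries, red ventral and blue dorsal, and black bars are the means of 2. Gata4 falls with stage and in Ngn3-high cells, Foxa2 and Foxa3 are highest in Ngn3-high cells, and Foxa1 is under 10 CPM outside E10.5.

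Gata4 followed stage and gate. Its levels were highest in the E10.5 libraries, intermediate in Ngn3-low libraries and low in Ngn3-high and E17.5 libraries. In this order, dorsal E10.5, ventral E10.5, dorsal Ngn3-low, ventral Ngn3-low, dorsal Ngn3-high and ventral Ngn3-high libraries each lay below the one before with no overlap. Ventral Ngn3-high and dorsal E17.5 libraries overlapped. Within this order the steps between the sides at E10.5 (edgeR, adjusted p = 0.229) and in Ngn3-low cells were not called. Here and below, groups of 2 libraries or sets can lie apart without a true difference. The share of all genes whose groups lie apart was not computed. For Gata6 the ventral Ngn3-low, dorsal Ngn3-low and ventral E10.5 libraries formed the top with overlapping neighbours. The Ngn3-high libraries of both sides came next, then dorsal E10.5, and the E17.5 libraries of both sides were lowest. Foxa2 was highest in ventral Ngn3-high, then dorsal Ngn3-high, then dorsal E10.5 libraries, each apart from the next. Its E17.5 and Ngn3-low libraries of both sides and its ventral E10.5 libraries lay together below them. The Ngn3-low groups had the lowest means, 74.3 CPM in ventral and 73.9 CPM in dorsal cells. The lowest single library was a dorsal E17.5 one, at 68.0 CPM. Foxa3 was highest in ventral Ngn3-high and then dorsal Ngn3-high libraries. The Ngn3-low libraries of both sides came next, and at the bottom dorsal E17.5, ventral E17.5, ventral E10.5 and dorsal E10.5 libraries each overlapped the next in that order. Foxa1 was highest in ventral E10.5 and then dorsal E10.5 libraries, with the Ngn3-low libraries below and all others lower still.

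The sides were compared first at E10.5, where the pancreas forms as 2 buds. Gata6 rose in ventral Pdx1+ cells and Foxa2 fell there, so 2 of 5 members were called, with 25.3% of all tested genes called in that comparison. Gata6 stood at 125.1 and 124.6 CPM in ventral libraries, against 55.2 and 56.5 CPM in dorsal libraries. The groups did not overlap, and the log2 ratio was 1.16 (SE 0.13, adjusted p = 1.65e-05). Foxa2 stood at 77.2 and 76.8 CPM in ventral libraries, against 133.0 and 137.9 CPM in dorsal libraries. Again no library overlapped, and the log2 ratio was -0.81 (SE 0.13, adjusted p = 0.000345). Against a minimum 1.5-fold change Foxa2 was no longer called (adjusted p = 0.108).

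The other members were not called at E10.5. Gata4 had 116.1 and 102.9 CPM in ventral libraries and 128.3 and 130.5 CPM in dorsal libraries, a log2 ratio of -0.24 (SE 0.13, adjusted p = 0.229) from groups that did not overlap. Foxa1 had 45.2 and 47.5 CPM in ventral libraries and 28.6 and 31.1 CPM in dorsal libraries. Its log2 ratio of 0.63 had an SE of 0.54 (adjusted p = 0.46), and the call depended on the filter: with no filter on low counts the adjusted p was 0.0164. Foxa3 overlapped between the sides, with 24.5 and 24.2 CPM in ventral and 21.8 and 25.4 CPM in dorsal libraries, a log2 ratio of 0.05 (SE 0.12, adjusted p = 0.847).

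Genes of other cell types moved with these E10.5 results. All 8 cardiac muscle genes were higher in ventral libraries, with a summed level of 1317 to 2303 CPM against 8.13 to 28.2 CPM in dorsal libraries. Mesenchyme genes were higher in 8 of 12 and lower in 0, at 908.7 to 1346 CPM in ventral and 356.2 to 371 CPM in dorsal libraries. Of 11 hepatoblast genes 9 rose and 1 fell, and of 11 endocrine genes 10 fell, to 65.8 to 105.1 CPM in ventral libraries against 3733 to 3919 CPM in dorsal libraries. Epithelial genes summed to 1959 to 2049 CPM in ventral and 2083 to 2158 CPM in dorsal libraries. Gata4 and Gata6 are also made by heart and mesenchyme cells. The part of these cells in the Gata6 and Foxa2 differences was not tested.

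The wider GATA family was compared in the same libraries. Gata5, which acts in heart and gut endoderm, stood at 20.3 CPM in ventral against 7.83 CPM in dorsal libraries (log2 ratio 1.37, SE 0.33, adjusted p = 0.00826). It was the only call among 6 tested genes of the GATA family and its FOG cofactors, whose median log2 ratio was 0.93, against -0.03 over all genes. Other endoderm transcription factors rose in 5 and fell in 7 of 17, with a median of 0.04. Sox17, which marks the biliary primordium, stood at 128.1 against 0.211 CPM and Hhex at 135.3 against 18.02 CPM, while Isl1, a factor of endocrine cells, stood at 11.1 against 339 CPM.

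Liver genes that FOXA or GATA factors are known to bind rose in 8 and fell in 1 of 12 in ventral libraries, with a median of 2.56. Afp, the fetal serum protein of hepatoblasts, stood at 1431 CPM in ventral against 51.2 CPM in dorsal libraries (log2 ratio 4.81, adjusted p = 2.36e-06). Beta cell genes tied to FOXA2 fell in 7 and rose in 2 of 10, with a median of -2.44. Slc2a2, the glucose transporter gene, was one of the 2 that rose, at 81.2 CPM in ventral against 11.2 CPM in dorsal libraries. Of 13 Hedgehog pathway genes, which Foxa factors regulate in other endoderm, 1 fell and 0 rose (Hhip, log2 ratio -0.74, adjusted p = 0.0409).

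The sides were compared next at E14.5 and E17.5. In Ngn3-high cells 1 of 5 members was called, with 0.486% of all genes called. That member was Gata4, with 4.98 and 6.99 CPM in ventral libraries, against 12.8 and 17.9 CPM in dorsal libraries. No library overlapped, and the log2 ratio was -1.31 (SE 0.18, adjusted p = 0.00319). Without ventral Ngn3-high replicate 1 it was -1.10 and not called (adjusted p = 0.0781), and against a minimum 1.5-fold change the adjusted p was 0.121. Gata6, Foxa2 and Foxa3 differed by at most 0.24 on the log2 scale, with adjusted p of 0.801 or more.

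In Ngn3-low cells 0 of 5 members and 0.017% of all genes were called by edgeR. Gata4 again had the lower level on the ventral side, 60.2 and 52.2 CPM against 72.8 and 76.1 CPM in dorsal libraries, a log2 ratio of -0.41 (SE 0.14, unadjusted p = 0.00961, adjusted p = 1). In E17.5 beta cells 0 of 5 members and 0.0283% of all genes were called. Gata4 was at 5.31 and 5.00 CPM in ventral and 5.45 and 6.27 CPM in dorsal beta cells. DESeq2 called 0 members in both comparisons. By edgeR 1 member (Gata4) had an unadjusted p under 0.05 in Ngn3-low cells, as did 625 of 17690 genes. At E17.5 it was 0 members and 546 genes.

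The change of the side difference itself was tested. The ventral minus dorsal difference at E10.5 less that at E17.5 was called for 2 of 5 members, with 12.8% of all genes called. For Gata6 it was 1.05 (SE 0.20, adjusted p = 0.00226) and for Foxa2 -0.86 (SE 0.19, adjusted p = 0.0065). At E17.5 Gata6 had 32.4 and 44.5 CPM in ventral and 31.8 and 39.5 CPM in dorsal libraries, which overlap, and Foxa2 had 70.5 and 93.8 CPM in ventral and 68.0 and 91.1 CPM in dorsal libraries, which overlap too. Neither passed the test against a 1.5-fold change (adjusted p = 0.0653 for Gata6 and 0.232 for Foxa2). The groups compared differ in transgene and cell type as well as in stage, and these cannot be told apart.

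**Figure D2:**
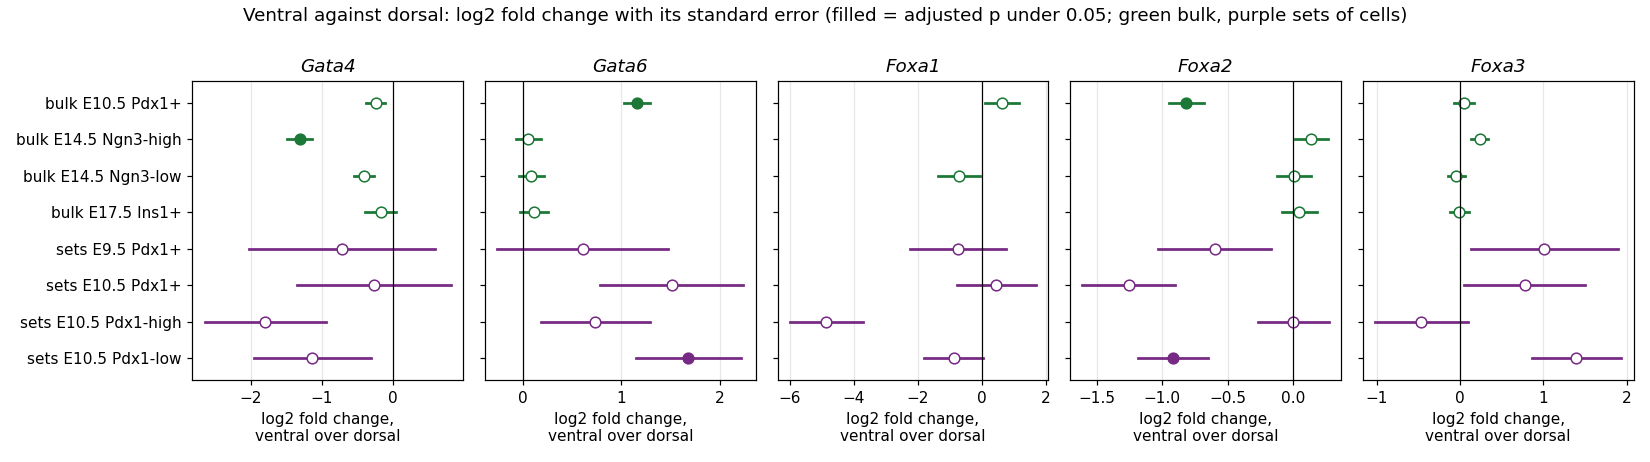
Ventral over dorsal log2 fold change of each member (x axis) in each side comparison (down the page), with bars of 1 SE. Green points are bulk and purple points are single-cell sets, and filled points have an adjusted p under 0.05. Foxa1 is left out of Ngn3-high and E17.5 cells, where it has few reads. Gata6 lies to the right and Foxa2 to the left in bulk at E10.5 and in Pdx1-low sets, Foxa2 lies at 0 in Pdx1-high sets, and Gata4 lies to the left in Ngn3-high cells.

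The gates were compared at E14.5 within each side. All 5 members were called on each side, where 62% (ventral) and 61.6% (dorsal) of all tested genes were called, so the count of calls is not particular to them. Gata4, Gata6 and Foxa1 fell in Ngn3-high endocrine progenitors, and Foxa2 and Foxa3 rose. Gata4 stood at 4.98 and 6.99 CPM in ventral Ngn3-high libraries, against 60.2 and 52.2 CPM in ventral Ngn3-low libraries. The log2 ratio was -3.21 (SE 0.17, adjusted p = 4.6e-10) in ventral cells. In dorsal cells it was -2.31 (SE 0.15, adjusted p = 5.98e-09), from 12.8 and 17.9 CPM in Ngn3-high against 72.8 and 76.1 CPM in Ngn3-low libraries.

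Foxa2 moved the other way. It stood at 214.6 and 210.1 CPM in ventral Ngn3-high libraries, against 72.1 and 76.5 CPM in Ngn3-low libraries, a log2 ratio of 1.51 (SE 0.13, adjusted p = 1.18e-07). In dorsal cells it stood at 195.1 and 191.1 CPM in Ngn3-high, against 70.7 and 77.2 CPM in Ngn3-low libraries, a log2 ratio of 1.39 (SE 0.13, adjusted p = 3.18e-07). The gates did not overlap on either side. Foxa3 rose as well, to 77.0 and 80.2 CPM in ventral Ngn3-high against 35.4 and 37.4 CPM in ventral Ngn3-low libraries, a log2 ratio of 1.11 (SE 0.11, adjusted p = 4.17e-07). In dorsal cells Foxa3 had 63.0 and 70.7 CPM in Ngn3-high and 34.5 and 40.6 CPM in Ngn3-low libraries, a log2 ratio of 0.83 (SE 0.11, adjusted p = 8.94e-06).

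Gata6 fell less than Gata4. Ventral Ngn3-high libraries had 91.0 and 102.6 CPM of Gata6 and ventral Ngn3-low libraries 139.7 and 147.8 CPM, a log2 ratio of -0.57 (SE 0.13, adjusted p = 0.00129). Dorsal Ngn3-high libraries had 92.5 and 94.2 CPM and dorsal Ngn3-low libraries 123.1 and 147.8 CPM, a log2 ratio of -0.54 (SE 0.13, adjusted p = 0.00206). Neither was called against a minimum 1.5-fold change (adjusted p = 0.512 and 0.626). The difference between Gata4 and Gata6 was not tested.

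Foxa1 was scarce at E14.5 and its values rest on few reads. Ventral Ngn3-high libraries had 0 and 7 reads of Foxa1 and ventral Ngn3-low libraries 29 and 60 reads. The log2 ratio was -3.51 (SE 1.07, adjusted p = 0.0107). It was no longer called without ventral Ngn3-low replicate 2 (-2.97, adjusted p = 0.0721) or ventral Ngn3-high replicate 1 (-2.65, adjusted p = 0.0777), and without ventral Ngn3-high replicate 2, which leaves a library with 0 reads, the fitted value was -8.18. Dorsal Ngn3-high libraries had 4 and 5 reads and dorsal Ngn3-low libraries 12 and 132 reads, so the 2 Ngn3-low libraries differed more from each other than the first of them did from the Ngn3-high libraries. Here the log2 ratio was -4.07 (SE 0.97, adjusted p = 0.00209). It was -1.49 and not called (adjusted p = 0.145) without dorsal Ngn3-low replicate 2, and -3.27 (adjusted p = 0.0512) without dorsal Ngn3-high replicate 1. Without dorsal Ngn3-low replicate 1 it was -4.95, and without dorsal Ngn3-high replicate 2 it was -4.71.

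Whether the gate difference was the same on both sides was tested as a contrast. With 0.0113% of all genes called, 0 of 5 members were called by edgeR, and DESeq2 called 0. For 1 member (Gata4) the unadjusted p was under 0.05, as for 743 of 17690 genes. The Gata4 value was -0.90 (SE 0.22, adjusted p = 0.417), and with no filter on low counts it was called at -0.89 (adjusted p = 0.0022).

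Markers of other cells moved with the gate. Endothelial genes summed to 7.17 to 12.6 CPM in ventral and 7.89 to 12.8 CPM in dorsal Ngn3-high libraries, against 240.6 to 796.2 CPM in ventral and 357.2 to 714.3 CPM in dorsal Ngn3-low libraries, and all 8 were lower in Ngn3-high cells on both sides. Mesenchyme genes were lower in 11 of 12 in ventral and 5 of 12 in dorsal Ngn3-high cells, and summed to 327.9 to 343.6 and 283.4 to 325.3 CPM, against 870.9 to 1963 and 912.1 to 1217 CPM in Ngn3-low cells. Endocrine genes were higher in 11 of 11 on both sides. The part of these cells in the fall of Gata4, Gata6 and Foxa1 was not tested.

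Among related genes, the GATA family and FOG cofactors fell in 5 of 6 in ventral and 3 of 6 in dorsal Ngn3-high cells, with medians of -2.78 and -1.63. Gata2, a factor of blood and endothelial cells, stood at 0.269 CPM in ventral against 0.174 CPM in dorsal Ngn3-high libraries, against 4.44 and 5.32 CPM in Ngn3-low libraries. Zfpm2, a FOG cofactor that binds GATA4, stood at 0.374 and 0.454 CPM, against 3.47 and 2.46 CPM. Hedgehog pathway genes fell in 8 and rose in 4 of 13 on each side. The receptor-side genes Hhip and Gas1 were among those that fell, with log2 ratios of -3.96 and -4.11 in ventral and -4.06 and -2.82 in dorsal cells.

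Beta cell genes tied to FOXA2 rose in 8 and fell in 1 of 10 in ventral and rose in 9 and fell in 1 of 10 in dorsal Ngn3-high cells, with medians of 4.59 and 4.47. The insulin gene Ins2 stood at 776.2 CPM in ventral against 997.4 CPM in dorsal Ngn3-high libraries, against 1.41 and 1.28 CPM in Ngn3-low libraries. Pcsk1, which encodes a prohormone convertase, rose by 7.25 in ventral and 7.42 in dorsal cells on the log2 scale. Other endoderm transcription factors rose in 7 and fell in 8 of 17 on each side: Isl1 rose by 7.78 in ventral and 7.30 in dorsal cells, and Onecut1 fell by 5.39 on the log2 scale in ventral cells, and fell by 4.53 in dorsal cells. Foxm1, a forkhead gene of dividing cells, fell to 9.83 CPM in ventral and 11.7 CPM in dorsal Ngn3-high libraries, against 102.7 and 101.2 CPM in Ngn3-low libraries. All-gene medians in these comparisons were 0 and -0.01.

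**Figure D3:**
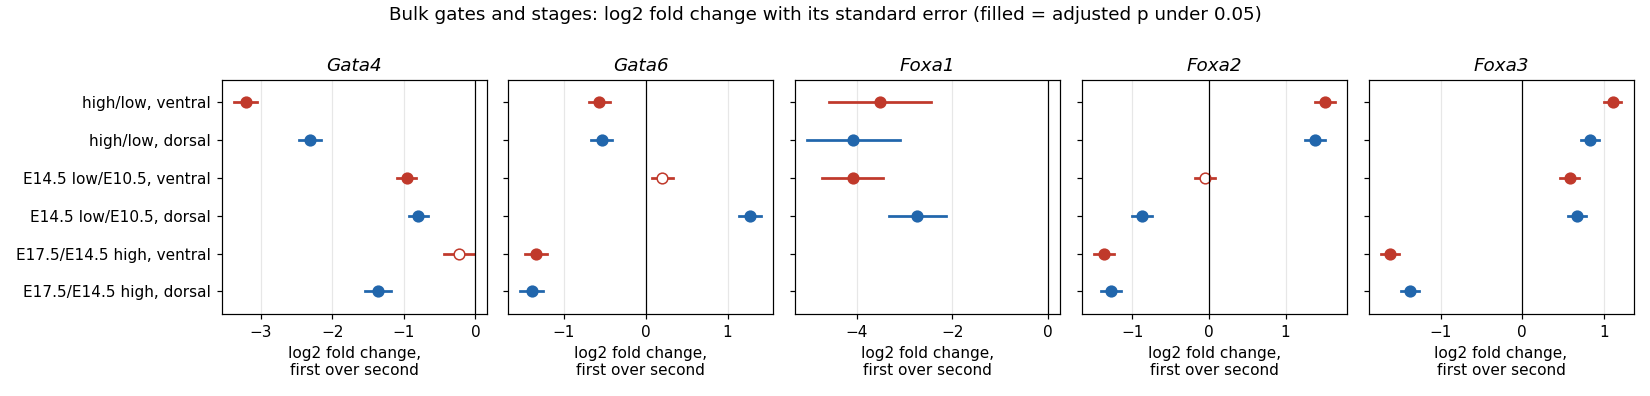
Log2 fold change of each member (x axis, bars of 1 SE) for Ngn3-high over Ngn3-low, E14.5 Ngn3-low over E10.5, and E17.5 over E14.5 Ngn3-high, ventral in red above dorsal in blue. Filled points have an adjusted p under 0.05. Foxa1 is left out of the last comparison, where its libraries held at most 7 reads.

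Stage was compared within each side, with the reservation that the transgene used for sorting changed too. In Ngn3-low cells of E14.5 against Pdx1+ cells of E10.5, 3 of 5 members were called in ventral and 5 of 5 in dorsal cells, with 55.5% and 60.1% of all genes called. Gata4 fell on both sides, by 0.96 (SE 0.14, adjusted p = 3.59e-05) in ventral and 0.80 (SE 0.13, adjusted p = 0.000159) in dorsal cells on the log2 scale. The dorsal value missed the test against a 1.5-fold change (adjusted p = 0.0577). Foxa3 rose by 0.58 (SE 0.11, adjusted p = 0.000554) in ventral and 0.67 (SE 0.11, adjusted p = 0.000164) in dorsal cells, and neither passed that test (adjusted p = 0.556 and 0.21).

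Gata6 and Foxa2 were called on the dorsal side alone in this stage comparison. Dorsal Gata6 rose, at 123.1 and 147.8 CPM in E14.5 Ngn3-low libraries against 55.2 and 56.5 CPM at E10.5 (log2 ratio 1.28, SE 0.13, adjusted p = 1.61e-06), while the ventral value was 0.20 (SE 0.13, adjusted p = 0.192). Dorsal Foxa2 fell, at 70.7 and 77.2 CPM against 133.0 and 137.9 CPM (log2 ratio -0.87, SE 0.13, adjusted p = 4.94e-05), while the ventral value was -0.05 (SE 0.13, adjusted p = 0.771). Whether these stage differences differed between the sides was not tested here.

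Foxa1 had the largest stage difference of the 5 members between these groups. Ventral E14.5 Ngn3-low libraries had 1.88 and 3.56 CPM, against 45.2 and 47.5 CPM at E10.5, a log2 ratio of -4.08 (SE 0.64, adjusted p = 9.1e-05). Dorsal E14.5 libraries had 0.743 and 8.27 CPM, against 28.6 and 31.1 CPM, a log2 ratio of -2.73 (SE 0.60, adjusted p = 0.00137). The dorsal value was -1.85 without dorsal Ngn3-low replicate 1 and -5.31 without replicate 2, and was called in both. Every E14.5 library lay below every E10.5 library, but the size of the dorsal fall rests on 2 unequal libraries.

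Between Ngn3-high cells of E14.5 and beta cells of E17.5, 3 of 5 members were called in ventral and 4 of 5 in dorsal cells, with 51.4% and 47.9% of all genes called. All calls were falls. Foxa2 stood at 70.5 and 93.8 CPM in ventral E17.5 libraries, against 214.6 and 210.1 CPM in ventral Ngn3-high libraries, a log2 ratio of -1.37 (SE 0.13, adjusted p = 8.96e-07), and the dorsal value was -1.28 (SE 0.13, adjusted p = 2.01e-06). Foxa3 fell by 1.62 (SE 0.11, adjusted p = 3.56e-08) in ventral and 1.38 (SE 0.11, adjusted p = 2.15e-07) in dorsal cells. Gata6 fell by 1.34 (SE 0.14, adjusted p = 1.9e-06) and 1.40 (SE 0.14, adjusted p = 1.56e-06). Gata4 fell in dorsal cells, by 1.36 (SE 0.19, adjusted p = 3.7e-05), and in ventral cells the value was -0.22 (SE 0.21, adjusted p = 0.396). Foxa1 held 1 and 2 reads in ventral and 3 and 2 reads in dorsal E17.5 libraries. On each side its E17.5 and Ngn3-high libraries overlapped in CPM, so no fold is given.

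At this step 7 of 10 beta cell genes tied to FOXA2 rose and 1 fell on each side, with medians of 1.76 in ventral and 1.5 in dorsal cells. The list includes Ins1, and a rise of Ins1 follows from the sort of E17.5 cells as Ins1+. Slc2a2 stood at 748.9 CPM in ventral against 751.3 CPM in dorsal E17.5 libraries, against 58.3 and 72.9 CPM in Ngn3-high libraries. Zfpm1, the other FOG cofactor, fell by 1.88 in ventral and 1.74 in dorsal cells on the log2 scale, beside the GATA genes. Mesenchyme genes rose in 10 and fell in 1 of 12 in ventral and rose in 9 and fell in 1 in dorsal cells, with sums of 1246 to 3029 and 902.9 to 2142 CPM at E17.5. Their part in the members' differences was not tested. The insulin genes Ins1 and Ins2 averaged 28600 and 49710 CPM in ventral and 26610 and 46920 CPM in dorsal beta cells.

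Single cells showed which members were present in the same cells. With 10 CPM as the level for presence, Foxa2 was found in 415 of 447 cells, Foxa3 in 355, Gata6 in 329, Gata4 in 215 and Foxa1 in 198. Of these cells, 48 held all 5 members, 178 held 4, 138 held 3, 65 held 2, 16 held 1 and 2 held 0. Foxa2 and Foxa3 were found together in 334 cells, and Gata4 and Gata6 in 144, which is 67.0% of the cells with Gata4 and 43.8% of those with Gata6. E9.5 cells held the most members, on average 4.16 in ventral and 4.39 in dorsal cells. All 31 dorsal E9.5 cells and all 44 ventral ones held 3 or more.

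For shares of cells, each cell was thinned to 200000 reads so that depth did not differ, and a cell counted as positive with 1 or more reads. Intervals are exact 95% Clopper-Pearson intervals and cover counting error only. Sox10, Gata1 and Tyrobp, genes of neural crest, red cells and immune cells, had reads in 0 to 4.55% of cells in the 11 groups, which gives the background.

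**Figure D4:**
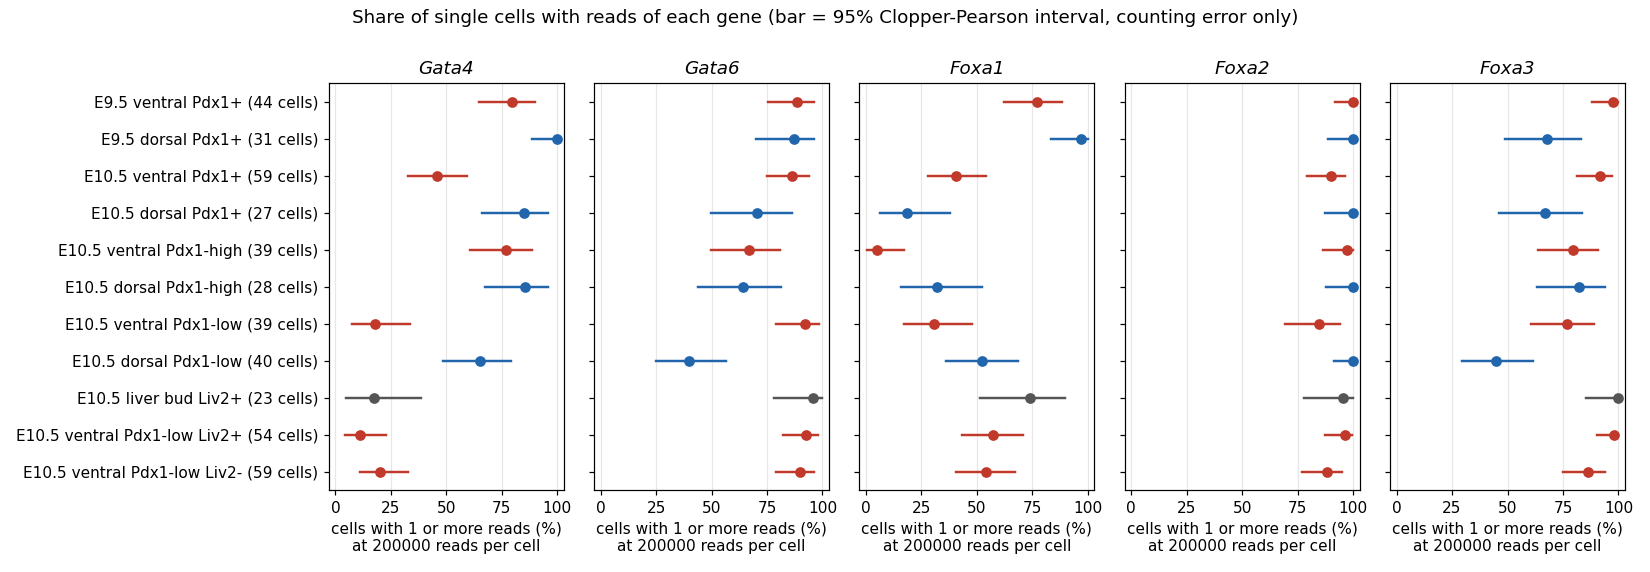
Share of cells with 1 or more reads of each member after thinning to 200000 reads (x axis, percent, with 95% intervals) in the 11 groups of single cells (down the page; red ventral, blue dorsal, grey liver bud). Foxa2 is at 84.6% or above in all groups, Gata4 ranges from 11.1% in ventral Liv2+ cells to 100% in dorsal E9.5 cells, and Foxa1 is lowest, at 5.13%, in ventral Pdx1-high cells.

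Foxa2 was the most even member, with reads in 84.6% of ventral Pdx1-low cells at the least and in all cells of 5 groups. Gata4 and Foxa1 varied more. Gata4 had reads in 100% of 31 dorsal E9.5 cells (interval 88.8 to 100%) and 79.5% of 44 ventral ones. At E10.5 the share was 76.9% in ventral and 85.7% in dorsal Pdx1-high cells, against 17.9% (7.54 to 33.5%) in ventral and 65.0% (48.3 to 79.4%) in dorsal Pdx1-low cells. In the Liv2 sort it was 11.1% in Liv2+ and 20.3% in Liv2- cells, and 17.4% in the liver bud. Gata6 ran otherwise, with 92.3% of ventral and 40.0% of dorsal Pdx1-low cells, 66.7% of ventral and 64.3% of dorsal Pdx1-high cells, and 95.7% of liver bud cells. Foxa3 had reads in all 23 liver bud cells, 98.1% of Liv2+ and 86.4% of Liv2- cells, and 45.0% of dorsal Pdx1-low cells. Foxa1 had reads in 73.9% of liver bud cells, 57.4% of Liv2+ and 54.2% of Liv2- cells, but in 2 of 39 ventral Pdx1-high cells, 5.13% (0.627 to 17.3%), close to the background share. Without thinning, Foxa1 was again at 5.13% there, while in ventral Pdx1-low cells Gata4 had reads in 30.8% and Foxa1 in 43.6%, against 17.9% and 30.8% after thinning.

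By mean level in sets, neighbouring groups in the order of each member overlapped in 47 of 50 cases. The 3 breaks lay below dorsal Pdx1-high sets for Gata4, below dorsal E9.5 sets for Foxa1 and below liver bud sets for Foxa3. The sides were compared first. In Pdx1-low cells 2 of 5 members were called, with 24.9% of all genes called. Gata6 had 92.5, 86.9, 17.2, 23.3 and 57.3 CPM in the 5 ventral sets. The 6 dorsal sets ran from 5.02 to 41.9 CPM with a median of 14.9 CPM. The groups overlapped, and Gata6 was higher in ventral sets by a log2 ratio of 1.68 (SE 0.53, adjusted p = 0.0204). It was not called without ventral Pdx1-low replicate 1 (1.41, adjusted p = 0.067) or replicate 2 (1.45, adjusted p = 0.06), nor against a 1.5-fold change (adjusted p = 0.0533), and it was 2.28 with sets of 5 or more cells. Foxa2 had 127.0, 79.0, 52.9, 70.6 and 85.4 CPM in ventral sets, against 95.2 to 207.6 CPM in dorsal sets with a median of 158.0 CPM. One ventral set lay within the dorsal range, and the log2 ratio was -0.92 (SE 0.26, adjusted p = 0.0108; against a 1.5-fold change, adjusted p = 0.127).

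Genes of other cell types were summed in these sets as well. Of all 447 single cells, 0 had 4 or more of the cardiac genes at 10 CPM. Mesenchyme genes were higher in 8 of 12 in ventral Pdx1-low sets and summed to 93.2 to 2269 CPM, against 71.6 to 238.7 CPM in dorsal sets. With Epcam+ cells only, both members were again called. Endocrine genes moved the other way, at 10.4 to 153.1 CPM in ventral and 26380 to 54690 CPM in dorsal Pdx1-low sets, with 10 of 11 lower. Endocrine RNA was thus abundant in the dorsal Pdx1-low gate, and the part of endocrine and mesenchyme RNA in these differences was not tested.

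Gata4 and Foxa3 were not called in Pdx1-low cells, but each was called in some alternatives. Gata4 had 11.6, 0, 6.44, 13.1 and 65.4 CPM in ventral sets, and 6.45 to 89.6 CPM in dorsal sets, a log2 ratio of -1.13 (SE 0.82, adjusted p = 0.328). It was called with Epcam+ cells only (-2.75, adjusted p = 0.0187) and without ventral Pdx1-low replicate 6 (-2.47, adjusted p = 0.0423). In the ventral Pdx1-low cells 2 without Epcam that held 6 or more mesenchyme genes had a median of 400.7 CPM of Gata4, 148.5 CPM of Gata6 and 2.86 CPM of Foxa2, and 0 CPM of Foxa1 and Foxa3. Foxa3 had 61.7, 39.9, 65.5, 40.0 and 77.5 CPM in ventral sets, and 2.48 to 63.8 CPM in dorsal sets, a log2 ratio of 1.40 (SE 0.54, adjusted p = 0.055). It was called at 2.09 (adjusted p = 0.00355) without dorsal Pdx1-low replicate 4, and at 1.87 (adjusted p = 0.0318) with sets of 5 or more cells.

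Beside the members, GATA family and FOG genes rose in 3 and fell in 0 of 5 in ventral Pdx1-low sets, with a median of 3.32 against 0 over all genes. Gata5 stood at 27.5 CPM in ventral against 2.81 CPM in dorsal sets (log2 ratio 3.32, adjusted p = 0.0429). Liver genes bound by FOXA or GATA factors rose in 5 and fell in 2 of 13, among them Afp at 2750 CPM in ventral against 167.7 CPM in dorsal sets. Beta cell genes fell in 6 and rose in 1 of 10. Hedgehog genes rose in 5 and fell in 0 of 13, among them Gas1 at 31.2 CPM in ventral against 0.181 CPM in dorsal sets.

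In Pdx1-high cells 0 of 5 members were called by edgeR, with 0.00574% of all genes called, and DESeq2 called 1. For 2 members (Gata4 and Foxa1) the unadjusted p was under 0.05, as for 1847 of 17433 genes. Foxa1 had 0, 0, 0.841, 0 and 2.61 CPM in ventral sets, against 18.98, 5.09, 53.3, 0 and 37.8 CPM in dorsal sets. One dorsal set at 0 overlaps the ventral ones, and the log2 ratio of -4.85 (SE 1.14) had an adjusted p of 0.174 by edgeR and 7.76e-05 by DESeq2. Gata4 had 54.7, 50.8, 31.8, 25.8 and 99.0 CPM in ventral sets, against 105.7, 110.7, 363.9, 144.1 and 188.4 CPM in dorsal sets. Every ventral set lay below every dorsal set, and the log2 ratio was -1.80 (SE 0.86, adjusted p = 0.454). Foxa2 averaged 155.3 CPM in ventral and 155.5 CPM in dorsal sets.

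In Pdx1+ cells sorted without a split, 0 of 5 members were called by edgeR at E10.5, with 0.47% of all genes called. The unadjusted p was under 0.05 for 2 members (Gata6 and Foxa2) and 1575 of 17433 genes, and DESeq2 called 1 member. At E9.5 edgeR called 0 of 5 members and 0% of all genes. There 273 genes had an unadjusted p under 0.05 and DESeq2 called 33 genes. Pdx1 itself ran from 3.63 to 257.8 CPM in the dorsal E10.5 sets. At E10.5 Foxa2 had 102.5, 109.7 and 37.6 CPM in ventral sets, against 149.3, 177.5 and 274.9 CPM in dorsal sets. The sets did not overlap, and the log2 ratio was -1.25 (SE 0.35, adjusted p = 0.139). DESeq2 called it (adjusted p = 0.0178), as did edgeR after thinning (-1.49, adjusted p = 0.0414). Gata6 had 43.5, 20.7 and 54.7 CPM in ventral and 12.8, 20.7 and 7.83 CPM in dorsal sets, a log2 ratio of 1.51 (SE 0.73, adjusted p = 0.546). At E9.5, with 2 sets a side, Foxa1 had 42.8 and 66.2 CPM in ventral and 90.3 and 92.7 CPM in dorsal sets, and Foxa3 had 71.3 and 85.0 CPM in ventral and 28.2 and 49.2 CPM in dorsal sets. Neither overlapped and neither was called (adjusted p = 1 for both). The change of the side difference between these stages was called for 0 of 5 members, with 0.0402% of all genes called. The unadjusted p was under 0.05 for 0 members and 711 of 17433 genes, and DESeq2 called 0 members.

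**Figure D5:**
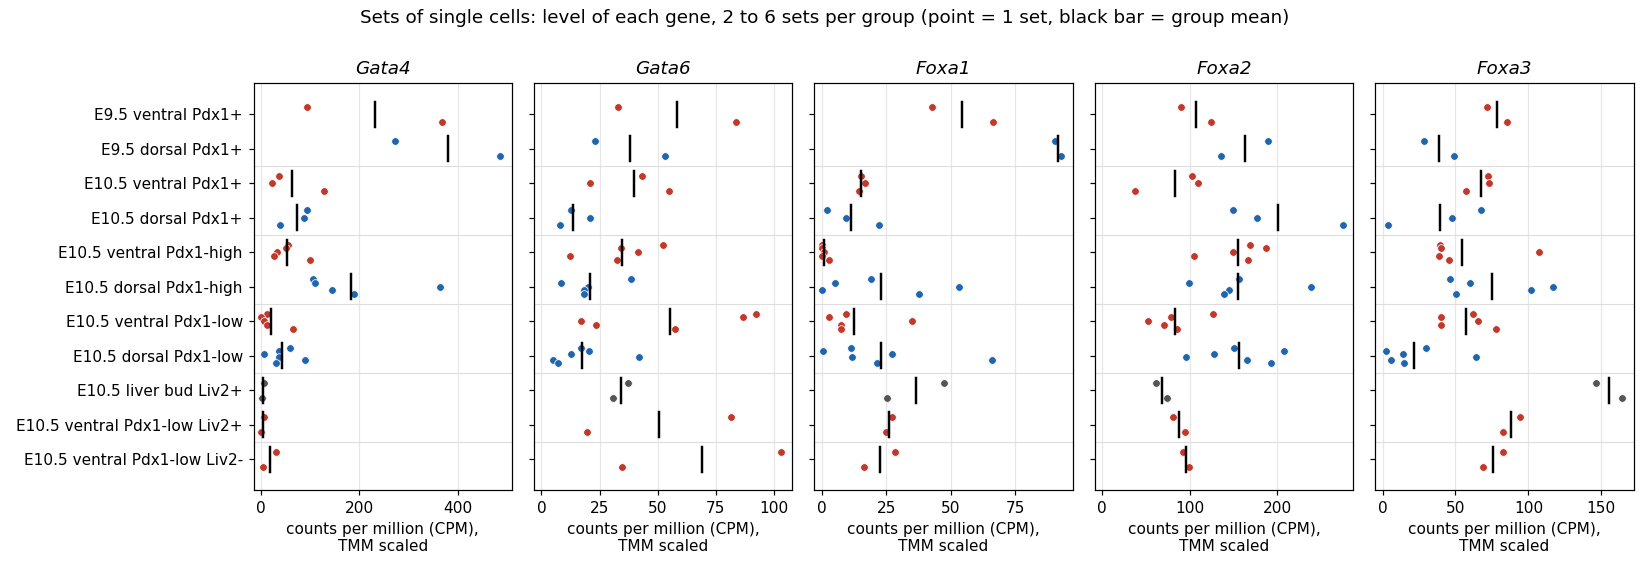
Level of each member in the 37 sets of single cells (x axis, CPM, own scale per gene, from 0) by group (down the page). Points are sets, red ventral, blue dorsal and grey liver bud, and black bars are means. Gata4 is high at E9.5 and in dorsal Pdx1-high sets, Foxa3 is highest in the liver bud, and Foxa1 is near 0 in ventral Pdx1-high sets.

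The Pdx1 gate was compared within each side. In dorsal cells 1 of 5 members was called, with 23.9% of all genes called. Foxa3 had 46.4, 59.6, 116.6, 102.0 and 50.2 CPM in Pdx1-high sets, against 2.48 to 63.8 CPM in Pdx1-low sets with a median of 14.2 CPM. One Pdx1-low set lay among the Pdx1-high sets. Foxa3 rose by a log2 ratio of 1.79 (SE 0.54, adjusted p = 0.0161), which was called in every alternative run for it, and was 2.48 without dorsal Pdx1-low replicate 4. Gata4 stood at 105.7 to 363.9 CPM in Pdx1-high and 6.45 to 89.6 CPM in Pdx1-low sets with no overlap, a log2 ratio of 2.08 (SE 0.81, adjusted p = 0.06). It was called after thinning (adjusted p = 0.016) and without dorsal Pdx1-low replicate 5 (2.43, adjusted p = 0.0461). Foxa2 differed by -0.01 (SE 0.26, adjusted p = 1) between these gates. The dorsal Pdx1-low sets are those rich in endocrine RNA, and its part in the members' gate differences was not tested.

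In ventral cells 0 of 5 members were called by edgeR, with 0.952% of all genes called. For 2 members (Foxa1 and Foxa2) the unadjusted p was under 0.05, as for 2308 of 17433 genes, and DESeq2 called both members. Foxa1 had 0 to 2.61 CPM in Pdx1-high sets, against 9.45, 2.88, 34.9, 7.65 and 7.62 CPM in Pdx1-low sets. The gates did not overlap, and the log2 ratio was -3.98 (SE 1.10, adjusted p = 0.0791). It was called without ventral Pdx1-high replicate 6 (-5.47, adjusted p = 0.0357), with no filter on low counts (adjusted p = 0.0459), with sets of 5 or more cells (adjusted p = 0.045), after thinning (adjusted p = 0.0177) and by DESeq2 (adjusted p = 0.00229). Foxa2 had 105.2 to 186.9 CPM in Pdx1-high and 52.9 to 127.0 CPM in Pdx1-low sets, a log2 ratio of 0.90 (SE 0.27, adjusted p = 0.118; by DESeq2, 0.0339). Gata5 fell in ventral Pdx1-high sets, to 0.0417 CPM against 27.5 CPM in Pdx1-low sets (log2 ratio -9.38, adjusted p = 0.00629).

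The gate difference of the ventral side less that of the dorsal side was called for 0 of 5 members by edgeR, with 11.1% of all genes called. For 3 members the unadjusted p was under 0.05, as for 4441 of 17433 genes, and DESeq2 called 2 members. The values were -3.97 (SE 1.39, adjusted p = 0.0595) for Foxa1, 0.92 (SE 0.38, adjusted p = 0.115) for Foxa2 and -1.86 (SE 0.78, adjusted p = 0.121) for Foxa3. Foxa1 was called without dorsal Pdx1-high replicate 5 (-4.30, adjusted p = 0.027), without dorsal Pdx1-low replicate 5 (-4.64, adjusted p = 0.0329) and without ventral Pdx1-high replicate 6 (-5.47, adjusted p = 0.0206). Foxa2 was called without dorsal Pdx1-high replicate 4 (1.13, adjusted p = 0.0448), and Foxa3 without dorsal Pdx1-low replicate 4 (-2.55, adjusted p = 0.0168).

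Liver bud cells differed from ventral Pdx1-high cells in 1 of 5 members, Foxa1, with 5.52% of all genes called. Foxa1 had 47.6 and 25.4 CPM in the 2 liver bud sets, against 0 to 2.61 CPM in the ventral Pdx1-high sets. The groups were far apart, the log2 ratio was 5.52 (SE 1.26, adjusted p = 0.00698), and it was called in all 15 alternatives run. Without ventral Pdx1-high replicate 6, the set with the highest ventral level, it was 7.03. Gata4 had 5.28 and 1.71 CPM in liver bud sets, against 25.8 to 99.0 CPM in ventral Pdx1-high sets, a log2 ratio of -3.91 (SE 1.42, adjusted p = 0.105). Foxa2 had 61.6 and 74.5 CPM in liver bud sets, against 105.2 to 186.9 CPM, a log2 ratio of -1.19 (SE 0.38, adjusted p = 0.062). DESeq2 called both (adjusted p = 0.0119 for Gata4 and 0.00738 for Foxa2).

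Foxa3 was at its highest level in the liver bud, 146.6 and 163.9 CPM, against 39.0 to 107.5 CPM in ventral Pdx1-high sets, with a log2 ratio of 1.52 (SE 0.69, adjusted p = 0.225). Liver genes bound by FOXA or GATA factors rose in 11 and fell in 0 of 13 in this comparison, with a median of 7.80 against -0.08 over all genes. Apoa1, an apolipoprotein gene, stood at 1318 CPM in the liver bud and 0.517 CPM in ventral Pdx1-high sets, and Alb, the albumin gene, at 1524 and 5.01 CPM. Gata5 stood at 9.33 CPM in the liver bud and 0.0417 CPM in ventral Pdx1-high sets (adjusted p = 0.012). Hepatoblast genes summed to 37860 to 49810 CPM in liver bud sets and 1150 to 1830 CPM in ventral Pdx1-high sets.

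The liver bud did not differ from ventral Pdx1-low Liv2+ cells in any member by edgeR (0 of 5, with 0.562% of all genes called). The unadjusted p was under 0.05 for 0 members and 1272 of 17433 genes, and DESeq2 called 0 members. Liv2+ and Liv2- ventral Pdx1-low cells did not differ in any either (0 of 5, with 0% of all genes called, 203 genes at an unadjusted p under 0.05 and 29 by DESeq2). With 2 sets a group these comparisons resolve large differences only. Foxa3 had 146.6 and 163.9 CPM in the liver bud, 94.3 and 82.2 CPM in Liv2+ and 82.8 and 68.8 CPM in Liv2- sets. Gata6 had 37.4 and 30.9 CPM in the liver bud, 81.6 and 19.6 CPM in Liv2+ and 103.1 and 34.7 CPM in Liv2- sets. Gata4 was at 30.9 CPM or less in all 6 sets. Hepatoblast genes summed to 11400 to 13040 CPM in Liv2+ and 4862 to 5102 CPM in Liv2- sets.

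From E9.5 to E10.5 no member was called in Pdx1+ cells by edgeR. In ventral cells 0 of 5 were called with 0% of all genes called (379 genes at an unadjusted p under 0.05 and 17 by DESeq2). In dorsal cells 0 of 5 were called with 0.275% of all genes called, and DESeq2 called 0 members. Of the members Foxa1 alone had an unadjusted p under 0.05, as did 1543 of 17433 genes. Gata4 had 94.2, 87.0 and 37.8 CPM in dorsal E10.5 sets, against 273.5 and 486.4 CPM in dorsal E9.5 sets, a log2 ratio of -2.38 (SE 1.20, adjusted p = 0.582). Foxa1 had 2.18, 9.46 and 22.3 CPM at E10.5, against 90.3 and 92.7 CPM at E9.5, a log2 ratio of -3.02 (SE 1.39, adjusted p = 0.552). Gata6 had 12.8, 20.7 and 7.83 CPM at E10.5 and 23.1 and 53.1 CPM at E9.5, a log2 ratio of -1.47 (SE 0.78, adjusted p = 0.603). These 3 members were lower in every dorsal E10.5 set than in either E9.5 set. The share of all genes lying apart in this way was not computed. Endocrine genes summed to 237.1 to 41580 CPM in these E10.5 sets and 31.6 to 68.1 CPM at E9.5. Pdx1 ran from 3.63 to 257.8 CPM in these E10.5 sets and from 121.1 to 131.4 CPM at E9.5.

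The genes most like each member across bulk libraries were taken by Pearson correlation of log2(CPM + 1) over 16 libraries among 10441 genes. The libraries share 8 groups, so these values describe the groups and have no test. Gata4 was closest to Nsun2 (0.991) and Suv39h2 (0.987), Gata6 to Nynrin (0.966) and Grb10 (0.965), and Foxa1 to Hmgb3 (0.971). Foxa2 was closest to Nhlh1 and Spint1 (0.983 for both) and Cck (0.98), and Foxa3 to Zbtb43 (0.978) and Snrk (0.977). Over the 37 sets and 9618 genes other genes led: Gsk3b (0.755) for Gata4, Cdkn1c (0.738) for Gata6, Cpm (0.651) for Foxa1, Irs4 (0.795) for Foxa2, and Acaa2 (0.865) and Lipa (0.862) for Foxa3. Among the members themselves, Foxa2 and Foxa3 had a correlation of 0.739 over bulk libraries and -0.508 over sets, and Gata4 and Foxa1 of 0.86 and 0.0827.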

How the data were processed

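Bulk RNA-seq libraries of sorted pancreatic cells and Smart-seq2 libraries of single cells were measured. The deposited tables hold raw read counts per gene and RPKM computed by the authors for 40824 genes, with 92 spike-in entries that were left out of library sizes and tests. The submitters' processing notes name TopHat2 2.1.0, Bowtie2, HTSeq 0.6.0 and GRCm38 (mm10), with no role for each. Strand settings, filters on cells and the removal of doublets are not stated there or in the labels. RPKM recomputed from the counts lay within 0.0051 of the deposited values for all 327328 bulk and 18289452 single-cell values. Cells came one to a library, and no doublet caller was run. A total of 25 ventral E9.5 cells carry a growth protocol for human stem cells in their labels; they were kept as mouse cells.

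Counts were fitted with edgeR 4.0.16 in R 4.3.3 (TMM, filterByExpr, glmQLFit, glmQLFTest, Benjamini-Hochberg, threshold 0.05), in one fit over 16 bulk libraries in 8 groups and one over 37 sets of 3 or more cells in 11 groups, so that groups share one estimate of the spread. These sets hold 438 cells, and 3 smaller sets were left out. SE was taken as the absolute log2 ratio over the square root of the F statistic. Levels are TMM-scaled CPM computed from the counts. RPKM means average values computed for each library from the counts, since the deposited bulk RPKM are pooled per group. Depth was 8779418 to 24551520 reads per bulk library and 201191 to 1738015 reads per cell. PCR reads carry no molecular identifiers, so intervals cover counting error only. Tests were checked on simulated counts with known changes.

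The members were taken by symbol and are given in every comparison. Of each gene list up to 4 called genes with the largest log2 fold change in size could be named, and for each member up to 5 genes with the highest correlation. The members and the lists were chosen with earlier results of these data known. Coordinates are from GENCODE vM21 and start windows from RefSeq (GRCm38.p6). Alternatives were DESeq2 1.42.0, RLE size factors, no filter, a test against a 1.5-fold change, cells thinned to 200000 reads, Epcam+ cells only, sets of 5 or more cells, a replicate block and leaving out each replicate. The RLE, DESeq2 and other scalings moved the median of all genes by at most 0.113 on the log2 scale. Leaving out 1 library of 2 leaves a lone library that is assumed to vary like the other groups.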

Additional observations from a re-analysis of the deposited data

Results flagged for a closer look

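In single-cell sets, 3 of 20 combinations of a member and a group with 4 to 10 sets held a set far from the others of its group. The cutoff was set for about 1 in 20 with normally distributed values. CPM of small sets are bounded at 0 and need not be so distributed, so 3 of 20 is not read as an excess. Gata4 had 65.4 CPM in set 6 of ventral Pdx1-low cells, where the next set had 13.1 CPM and the lowest 0. Foxa1 had 34.9 CPM in set 3 of ventral Pdx1-low cells, where the next had 9.45 CPM and the lowest 2.88 CPM. Foxa3 had 107.5 CPM in set 4 of ventral Pdx1-high cells, where the next had 45.3 CPM and the lowest 39.0 CPM. For Gata4, the 2 ventral Pdx1-low cells without Epcam and with 6 or more mesenchyme genes had a median of 400.7 CPM. Without set 6 Gata4 was lower in ventral than in dorsal Pdx1-low cells by a log2 fold change of -2.47 (edgeR, adjusted p = 0.0423).

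The side difference of E10.5 Pdx1+ cells less that of E17.5 Ins1+ cells was 1.05 for Gata6 and -0.86 for Foxa2 on the log2 scale. Both were called in bulk by edgeR (adjusted p = 0.00226 for Gata6 and 0.0065 for Foxa2), with 12.8% of all genes called. Neither passed edgeR's test against a 1.5-fold change (adjusted p = 0.0653 and 0.232). Transgene, cell type and stage cannot be told apart here.

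The 4 tdTomato+ cells of the E15.5 liver entered no comparison, since they form 1 set. Foxa3 was above the limit that a count of 0 allows, 3 reads or 5.30 to 6.77 CPM, in 4 of 4 cells, with a highest level of 50.5 CPM. Foxa1 was above it in 3 cells, with a highest level of 36.1 CPM, and Foxa2 in 2 cells, with a highest level of 11.3 CPM. Gata4 and Gata6 were above it in 0 cells. The same cells had 29753 to 49949 CPM of Afp and 11175 to 14581 CPM of Alb, and 0 CPM of Epcam.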

How the results depend on the processing

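Of 125 member values tested, 34 were called. Of these, 21 were called in every alternative run for them, 13 were not in at least 1, and 0 changed sign. Of the 91 not called, 14 were called in at least 1 alternative and 37 changed sign. Against a minimum 1.5-fold change 23 of 34 were called, and the members called became 1 in place of 2 for ventral over dorsal bulk E10.5 cells, 0 in place of 1 for Ngn3-high cells, 3 in place of 5 for dorsal E14.5 Ngn3-low over E10.5 cells, 0 in place of 2 for the change of the side difference between E10.5 and E17.5, and 0 in place of 2 for Pdx1-low sets. DESeq2 called 1 in place of 0 for Pdx1-high and for Pdx1+ E10.5 ventral over dorsal sets, 2 in place of 0 for ventral Pdx1-high over Pdx1-low sets and for the gate difference between the sides, and 3 in place of 1 for liver bud over ventral Pdx1-high sets. Cells thinned to 200000 reads gave 1 in place of 0 for Pdx1+ E10.5 sets, for ventral Pdx1-high over Pdx1-low sets and for the gate difference, and 2 in place of 1 for dorsal Pdx1-high over Pdx1-low sets and for the liver bud. Sets of 5 or more cells gave 1 in place of 0 for ventral Pdx1-high over Pdx1-low sets and for the gate difference, and 3 in place of 1 for the liver bud. Epcam+ cells only gave 4 in place of 2 for Pdx1-low sets and 2 in place of 1 for the liver bud, as did RLE size factors for the liver bud (2). With no filter 1 in place of 0 was called for the bulk gate difference between the sides and for ventral Pdx1-high over Pdx1-low sets. Leaving out 1 replicate gave 0 to 1 members for Ngn3-high cells, 1 to 3 for Pdx1-low sets, 1 to 2 for dorsal and 0 to 1 for ventral Pdx1-high over Pdx1-low sets, and 0 to 1 for the gate difference in sets. The cause of these changes was not tested.

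The labels do not say what a replicate number stands for, and whether the numbers pair samples was not settled. The deviations of same-numbered libraries or sets had correlations of -0.00264 to 0.781 over the bulk comparisons. Over the comparisons of sets they were -0.115 to 0.323. With 2 libraries or sets in each group both pairs must give the same correlation, so such a comparison holds 1 value. In the bulk side comparisons alone the correlations were 0.32 to 0.781. A replicate block gave 1 in place of 0 members for the gate difference in sets and moved the number of genes called by over 1.5 times in 3 of 25 comparisons. DESeq2 did so in 14 of 25, no filter in 7 of 25, thinning in 3 of 13, sets of 5 or more cells in 4 of 13, Epcam+ cells only in 1 of 13 and RLE size factors in 0 of 25. The share of higher calls moved by at most 26.3 percentage points with sets of 5 or more cells, 21 with DESeq2, 20.8 with the test against a 1.5-fold change, 14.1 with no filter, 13.7 with the block, 13.5 with thinning 7.42 with RLE size factors and 3.92 with Epcam+ cells only. Low read counts limit Foxa1 most: its E17.5 bulk libraries held 1 to 3 reads.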
